A study of Homo sapiens with 5 samples.

Results

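hsa-miR-320a, hsa-miR-484 and hsa-miR-1226 (below without the species prefix) are miRNAs whose precursors are described as bypassing the Microprocessor, and 3 of the 734 miRNA probes of the panel, taken by their exact probe names, measured them. The cells were Caco2, an established line from a human colorectal tumour that polarises in culture. They had been infected and selected with an shRNA against PLEKHA7 (shPLEKHA7, replicates 1, 2 and 3) or with a non-target shRNA (NT, replicates 1 and 3). All 5 samples are bulk total RNA from infected, selected cells of this line, so the controls carry an shRNA vector as well, and the titles name a single target. Bulk RNA cannot tell a change per cell from a change in which cells are present. The comparison asks how these miRNAs stand after depletion of PLEKHA7, a protein of the adherens junction. The panel holds no PLEKHA7 probe, so the knockdown itself was not analysed here, and the source field of shPLEKHA7 replicates 2 and 3 names another PLEKHA gene number than the title, which was followed.

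Most miRNAs are cut from longer RNA in steps. The Microprocessor, made of Drosha and its partner DGCR8, frees a hairpin from the primary transcript in the nucleus, and Dicer then trims the hairpin in the cytoplasm. PLEKHA7 is known for recruiting the Microprocessor to apical junctions of polarised epithelial cells, including Caco2. Some miRNAs reach Dicer without Drosha. The precursors of miR-320a and miR-484 are short capped transcripts whose 5′ end is the start of transcription, a route worked out in mouse cells and also seen in human cells. miR-1226 is a mirtron, a hairpin that is a whole short intron freed by splicing. The panel reads mature miRNAs only, so the route by which each was made was not measured.

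The sequences of miR-484 and miR-1226 are shown to place each mature miRNA in its hairpin, and for miR-1226 to show the intron-like ends of a mirtron. Neither a cap nor a start of transcription can be read from the sequence of miR-484. The probe targets equalled the RefSeq mature sequences hsa-miR-484 (GRCh38.p14, chr16:15643301-15643322, plus strand) and hsa-miR-1226-3p (GRCh38.p14, chr3:47849608-47849629, plus strand). They are given 5′ to 3′ with the seed, bases 2 to 8, in capitals.
miR-484: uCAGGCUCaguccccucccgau
miR-1226: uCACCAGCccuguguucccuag

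The RefSeq hairpin of MIR484 (GRCh38.p14, chr16:15643294-15643372, plus strand) is shown with the mature miRNA in capitals, at bases 8 to 29 of 79, near its 5′ end. It ends 10 bases short of NDE1, the nearest gene in the RefSeq table, which encodes a protein of the dynein pathway. The hairpin of MIR1226 (GRCh38.p14, chr3:47849555-47849629, plus strand) is shown with its outermost GU and AG in capitals, the letters that bound most introns. Its mature miRNA covers bases 54 to 75 and runs to the last base of the hairpin. It lies inside DHX30, an RNA helicase gene.
MIR484 hairpin: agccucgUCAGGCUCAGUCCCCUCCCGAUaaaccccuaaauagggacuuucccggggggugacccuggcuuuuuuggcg
MIR1226 hairpin: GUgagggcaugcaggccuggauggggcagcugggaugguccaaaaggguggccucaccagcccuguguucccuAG

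A hairpin that starts with GU and ends with AG, read on its own strand, was found for 36 of 1560 hairpins in the RefSeq table (2.31%). The 3 miRNAs have no seed in common. No other human probe on the panel shares the seed of miR-484 or of miR-1226, while miR-320b, miR-320c and miR-320d share that of miR-320a and each differ from it at 1 base over their common length. The probe target of miR-484 is 63.6% G or C, that of miR-1226 59.1% and that of miR-320a 54.5%, all above the median of 47.6% over the 654 human probes.

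Counts are reporter barcodes bound to each target and read without amplification. Total miRNA counts per lane ran from 32138 to 58298. The background of a lane is the count of its 8 negative-control probes, and its limit of detection, their mean plus 2 SD, ran from 11 to 24.5 counts. The mean of the negative controls was 8.0 ± 3.3 counts in shPLEKHA7 (SD, n = 3) and 6.8 ± 1.0 in NT (SD, n = 2), in overlapping groups (2-sided exact permutation p = 0.7, the smallest this design allows being 0.1). Of 8 probes for epithelial and intestinal miRNAs 7 were above the limit in all 5 lanes, and the 5 of the miR-200 family summed to 1431 to 1515 normalized counts in shPLEKHA7 and 1639 to 1684 in NT. The 3 intestinal probes summed to 503 to 736 in shPLEKHA7 and 542 to 575 in NT. One of them, miR-215, was above the limit in the 3 shPLEKHA7 lanes alone. It was called higher in shPLEKHA7 (log2 fold change 1.22, edgeR adjusted p under 0.05). Passing the limit through shPLEKHA7 lanes alone favours a value above 0, and with both NT counts below the limit its size is not measured. The other intestinal probes, miR-192 and miR-194, had log2 fold changes of -0.009 and 0.16. Apart from miR-215, no tested probe of these cell-type lists was called. Of 17 probes for miRNAs of other cell types 6 were above the limit in all 5 lanes (miR-142-5p, miR-223, miR-126, miR-214, miR-206 and miR-9) and 6 in none. The 6 blood-cell probes summed to 118 to 143 in shPLEKHA7 and 124 to 127 in NT. Their part in the results below was not tested. By the last digits of the deposited column names, the NT samples precede the shPLEKHA7 samples, so the order of lanes and the groups cannot be told apart.

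None of the 3 miRNAs was called higher or lower in shPLEKHA7 cells at an adjusted p under 0.05 in the fit on group alone, and all had positive log2 fold changes. miR-484, the only one above background in all 5 lanes, averaged 1.38 times its NT level in the fit. miR-320a had the highest estimate, and both of its NT counts lay below the limit of detection, so the size of its difference is not measured. miR-1226 was low throughout, with overlapping groups. By the edgeR quasi-likelihood test without a replicate block 0 of 3 were called, where 2.45% of all 204 tested probes were called higher and 3.92% lower (6.37% in all). With the replicate number as a block miR-320a was called (edgeR adjusted p = 0.0251). DESeq2 called 0 of 3, beside 4.41% of all tested probes. On the deposited values limma called 1 of 3, miR-320a, beside 7 of 189 human probes (3.7%). The unadjusted edgeR p was under 0.05 for 2 of 3, beside 48 of 204 (23.5%).

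**Figure D1:**
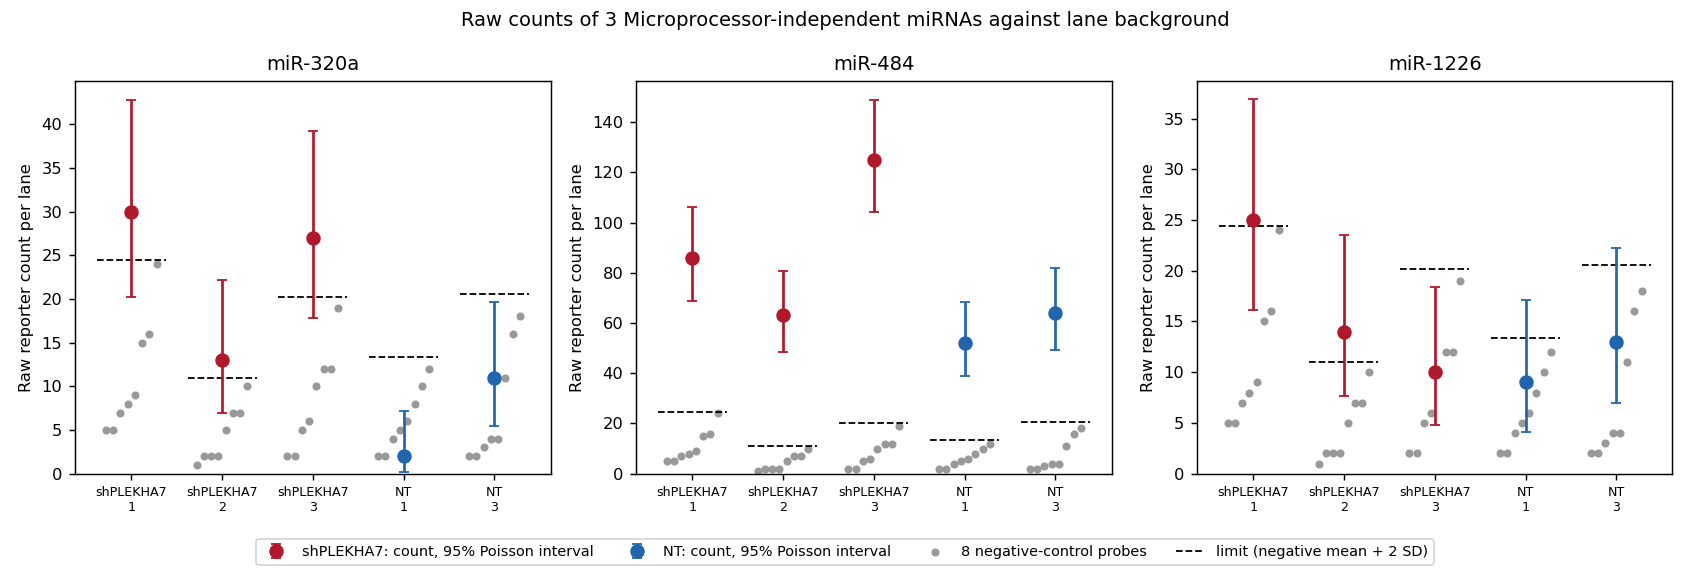
Raw reporter counts (vertical axes, 1 scale per panel) of miR-320a, miR-484 and miR-1226 in the 3 shPLEKHA7 lanes (red) and the 2 NT lanes (blue), with exact 95% Poisson intervals, the 8 negative-control probes of the lane (grey points) and its limit of detection (dashed line). miR-484 stands above the limit in all 5 lanes, miR-320a in the 3 shPLEKHA7 lanes, and miR-1226 in shPLEKHA7 replicates 1 and 2.

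miR-484, which derives from the MIR484 hairpin printed above, had raw counts of 86, 63 and 125 in shPLEKHA7 replicates 1, 2 and 3, against 52 and 64 in NT replicates 1 and 3. Every lane was above its limit, and none of the 8 negative controls reached the count of miR-484 in any lane. The raw counts overlapped, because shPLEKHA7 replicate 2, the lane with the lowest total, fell 1 count short of NT replicate 3.

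After scaling each lane by TMM, a trimmed mean of log ratios over the tested probes, miR-484 stood at 78.4, 86.5 and 94.5 normalized counts in shPLEKHA7 replicates 1, 2 and 3, against 65.9 and 60.2 in NT replicates 1 and 3. The normalized groups did not overlap, which was so for 48% of all tested probes. The means were 86.5 ± 8.0 in shPLEKHA7 (SD, n = 3) and 63.0 ± 4.1 in NT (SD, n = 2). The log2 fold change was 0.46 (SE 0.17, 95% interval 0.07 to 0.85), with an edgeR adjusted p of 0.135.

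In the deposited normalized signal, in which the geometric mean of the 5 housekeeping mRNAs equals 1802 in every lane, miR-484 was at 80.5, 71.5 and 112 in shPLEKHA7 replicates 1, 2 and 3, against 63.7 and 69.6 in NT replicates 1 and 3. The groups were apart there too, though shPLEKHA7 replicate 2 lay close to NT replicate 3. miR-484 ranked 57th, 53rd and 49th of the 734 miRNA probes by raw count in shPLEKHA7 replicates 1, 2 and 3, against 66th in both NT lanes. Such a rank needs no scaling, but depends on every other probe. As multiples of the lane's negative-control mean, miR-484 was at 7.7, 14 and 14.7 in shPLEKHA7 replicates 1, 2 and 3. Both NT lanes were at 8.5, above shPLEKHA7 replicate 1, so the groups overlapped on this scale.

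miR-320a, which is made from a capped precursor like miR-484, had raw counts of 30, 13 and 27 in shPLEKHA7 replicates 1, 2 and 3, against 2 and 11 in NT replicates 1 and 3. All 3 shPLEKHA7 counts were above the lane's limit and above each of the 8 negative controls. Both NT counts were below it: in NT replicate 1 all 8 negative controls were at or above 2 counts, and in NT replicate 3, 3 of them were at or above 11. The exact 95% Poisson intervals, which cover counting error only, were 20.2 to 42.8, 6.9 to 22.2 and 17.8 to 39.3 counts in shPLEKHA7 replicates 1, 2 and 3, and 0.24 to 7.2 and 5.5 to 19.7 in NT replicates 1 and 3. As raw counts, the interval of shPLEKHA7 replicate 2 overlaps those of both NT lanes, that of shPLEKHA7 replicate 3 overlaps that of NT replicate 3, and that of shPLEKHA7 replicate 1 overlaps neither. The relative TMM scale of the lanes ran from 0.73 to 1.32, so these overlaps need not hold after scaling.

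miR-320a stood at 27.4, 17.9 and 20.4 normalized counts in shPLEKHA7 replicates 1, 2 and 3, against 2.5 and 10.3 in NT replicates 1 and 3. The groups did not overlap, as for 48% of all tested probes and for 23 of the 31 with no NT lane above the limit. Passing the limit through shPLEKHA7 lanes alone, as miR-320a did, favours such a gap. For miR-320a the NT samples differed more between themselves, as a ratio, than the shPLEKHA7 samples did. The means were 21.9 ± 4.9 in shPLEKHA7 (SD, n = 3) and 6.4 ± 5.5 in NT (SD, n = 2). The fitted log2 fold change was 1.66 (SE 0.50, 95% interval 0.54 to 2.77), with an edgeR adjusted p of 0.0877. Set against the NT lanes' limits of detection, which averaged 18.2 normalized counts, the shPLEKHA7 mean was 1.20 times as high, while shPLEKHA7 replicate 2 (17.9) lay below that average. This ratio has no error attached and is not a lower bound on the fold.

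Relative to the mean of the lane's negative controls, miR-320a was at 2.7, 2.9 and 3.2 times background in shPLEKHA7 replicates 1, 2 and 3, against 0.33 and 1.5 times in NT replicates 1 and 3. The shPLEKHA7 lanes lay close together on this scale. By raw count miR-320a ranked 125th, 199th and 141st of 734 in shPLEKHA7 replicates 1, 2 and 3, against 670th and 277th in NT replicates 1 and 3. NT replicate 1 thus placed miR-320a near the bottom of the panel and NT replicate 3 near its middle.

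Leaving out NT replicate 1 lowered the log2 fold change of miR-320a to 1.09 (SE 0.43, edgeR adjusted p = 0.21), and leaving out NT replicate 3 raised it to 3.11 (SE 0.71, edgeR adjusted p = 0.0637). In each of these fits 1 NT sample was left, and its spread is taken to be that of the shPLEKHA7 samples. Without shPLEKHA7 replicate 2 it was called, at 1.75 (SE 0.60, edgeR adjusted p = 0.0494).

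**Figure D2:**
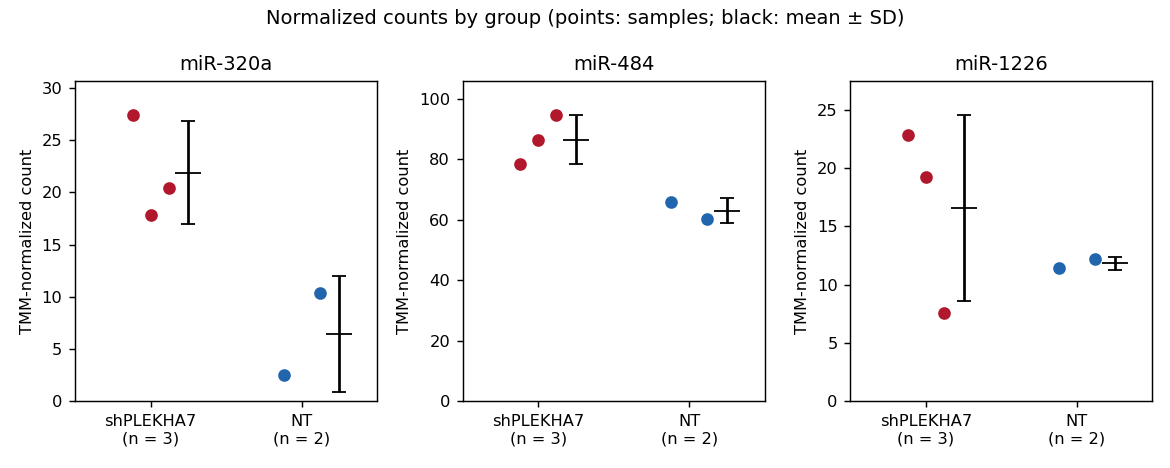
TMM-normalized counts (vertical axes, starting at 0) of each miRNA in shPLEKHA7 (red, n = 3) and NT samples (blue, n = 2), in replicate order from left to right, with the mean ± SD in black. The groups are apart for miR-320a (17.9 or more against 10.3 or less) and for miR-484 (78.4 or more against 65.9 or less), and overlap for miR-1226. They were apart for 48% of all tested probes.

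miR-1226, the mirtron read from its 3′ arm, had raw counts of 25, 14 and 10 in shPLEKHA7 replicates 1, 2 and 3, against 9 and 13 in NT replicates 1 and 3. It passed the limit in shPLEKHA7 replicates 1 and 2, the first by less than 1 count (25 against 24.5), and in neither NT lane. In shPLEKHA7 replicate 3, 4 of the 8 negative controls were at or above it, against 2 in each NT lane.

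miR-1226 stood at 22.8, 19.2 and 7.6 normalized counts in shPLEKHA7 replicates 1, 2 and 3, against 11.4 and 12.2 in NT replicates 1 and 3. The lowest sample of all was a shPLEKHA7 one, and the groups overlapped. The means were 16.5 ± 8.0 in shPLEKHA7 (SD, n = 3) and 11.8 ± 0.6 in NT (SD, n = 2). The log2 fold change was 0.41 (SE 0.53, 95% interval -0.78 to 1.61), with an edgeR adjusted p of 0.696. The interval spans both directions, and as the NT limits averaged 18.2 normalized counts, no fold against them is given. Without shPLEKHA7 replicate 3 the value was 0.84 (SE 0.38, edgeR adjusted p = 0.215). Without shPLEKHA7 replicate 1 or 2 the probe was above the limit in a single lane and was not tested.

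miR-320a and miR-1226 entered the test through shPLEKHA7 lanes alone, since a probe had to pass the limit in at least 2 samples. Of the 204 tested probes, 31 had no NT lane above the limit. All 31 had a log2 fold change above 0, as this way of passing favours, with a median of 0.74, and 3 of them were called. miR-320a lay above that median and miR-1226 below it. The 138 probes above the limit in both NT lanes, with miR-484 among them, had a median log2 fold change of -0.03, with 67 of them above 0. Over all tested probes the median was 0.06, and miR-320a had the second highest log2 fold change, miR-484 the 38th and miR-1226 the 43rd.

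**Figure D3:**
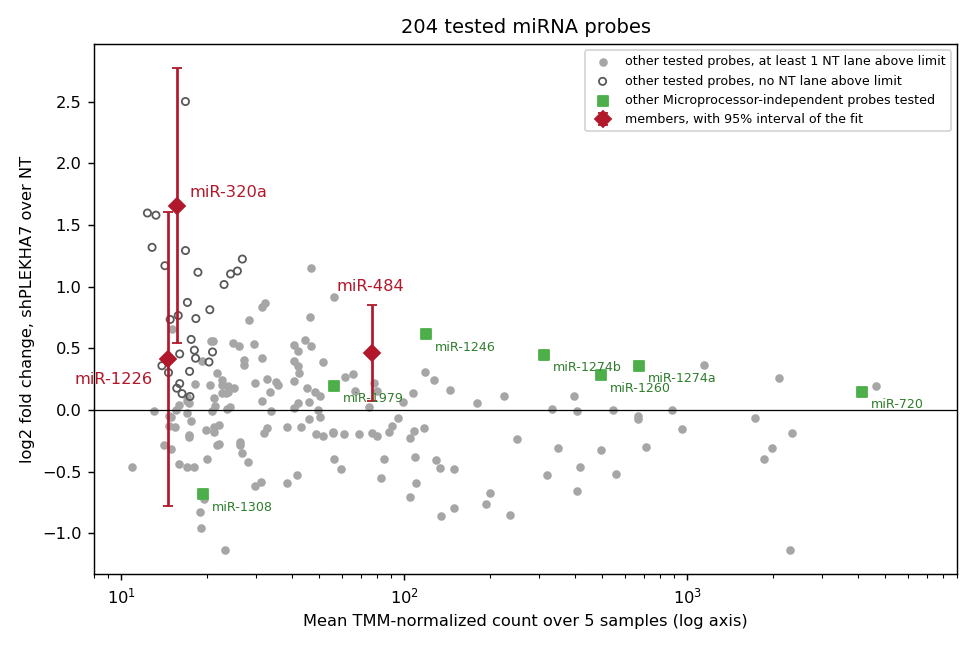
log2 fold change of shPLEKHA7 over NT (vertical axis) against the mean TMM-normalized count over 5 samples (horizontal log axis) for the 204 tested probes, with the 3 miRNAs as red diamonds with 95% intervals, other probes described as Microprocessor-independent as green squares, and probes with no NT lane above the limit as open circles. miR-320a (1.66) and miR-1226 (0.41) lie at the low end of abundance among the open circles, and miR-484 (0.46) lies farther right.

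Viral probes gave a further view of background, chosen after values had been seen. Of 80 viral probes 57 were never above the limit. Of these 80, 6, 15 and 7 were at or above the count of miR-320a in shPLEKHA7 replicates 1, 2 and 3, against 75 and 22 in NT replicates 1 and 3. For miR-1226 the numbers were 10, 14 and 39 in shPLEKHA7 replicates 1, 2 and 3, against 21 and 17 in NT replicates 1 and 3. For miR-484 at most 1 viral probe was at or above it in any lane. The viral median was 9, 7 and 9 counts in shPLEKHA7 replicates 1, 2 and 3, against 6 and 7 in NT replicates 1 and 3. miR-320a in the shPLEKHA7 lanes thus stood above the viral median, but among counts that some viral probes also reached.

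Ratios within a lane do not depend on how lanes are scaled. As probes differ in efficiency, only differences of such a ratio between groups can be compared. Both NT counts of miR-320a and of miR-1226 were below the limit, so each ratio here holds background counts in NT and the differences are values of these counts, not measured sizes. The log2 ratio of miR-320a to miR-484 was -1.52, -2.28 and -2.21 in shPLEKHA7 replicates 1, 2 and 3, against -4.70 and -2.54 in NT replicates 1 and 3. The groups did not overlap, but shPLEKHA7 replicate 2 lay close to NT replicate 3. The means differed by 1.62 (2-sided exact permutation p = 0.1, the smallest possible, and 0.15 after Benjamini-Hochberg adjustment over 3 pairs). Without NT replicate 1 the difference was 0.54, and without NT replicate 3 it was 2.70.

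With both probes below the limit in both NT lanes, the log2 ratio of miR-320a to miR-1226 averaged 0.53 ± 0.80 in shPLEKHA7 (SD, n = 3) and -1.21 ± 1.36 in NT (SD, n = 2), a difference of 1.73 (2-sided exact permutation p = 0.1, adjusted 0.15). Omitting NT replicate 1 gave 0.77, and omitting NT replicate 3 gave 2.70. The log2 ratio of miR-484 to miR-1226 averaged 2.53 ± 0.98 in shPLEKHA7 (SD, n = 3) and 2.42 ± 0.16 in NT (SD, n = 2), a difference of 0.12 in overlapping groups (2-sided exact permutation p = 1). Without shPLEKHA7 replicate 3 that difference turned to -0.44. No pair of the 3 miRNAs could reach an exact p under 0.05 in this design.

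Other RNAs described as made without the Microprocessor were mostly at background. Of 48 listed names 32 were on the panel, and 23 of these were never above the limit. Only 7, all listed as fragments of other structured RNAs, were tested. The edgeR test called 0 of the 7, with 2 at an unadjusted p under 0.05, and DESeq2 and limma called 0. At that unadjusted threshold 23.5% of all tested probes passed, so the 2 are near the background. Their median log2 fold change was 0.28, with 6 of 7 above 0, beside 0.06 and 115 of 204 over all tested probes.

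In the miR-320 family, miR-320b, which differs from miR-320a at 1 base, had raw counts of 5, 6 and 9 in shPLEKHA7 replicates 1, 2 and 3, against 3 and 10 in NT replicates 1 and 3. All were below the limit, as were those of miR-320d, which ran from 3 to 8, and miR-320c stood at 1 in every lane. The counts of miR-320a in the shPLEKHA7 lanes thus had no counterpart in the probes of its relatives. How far near-identical miRNAs bind each other's probes was not tested.

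Of the 11 other probes listed here as mirtrons, 10 were never above the limit. Whether each of them is made without the Microprocessor was not tested. miR-877, a mirtron of the ABCF1 gene, had raw counts of 22, 13 and 10 in shPLEKHA7 replicates 1, 2 and 3, against 12 and 19 in NT replicates 1 and 3, and passed the limit in shPLEKHA7 replicate 2 alone. Neither miR-877 nor any of the other 10 was above the limit in 2 lanes, so among the probes taken as mirtrons miR-1226 alone was tested. Among 4 snoRNA-related probes only miR-1248 passed, in 1 lane.

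Of the 7 tested RNA fragments 6 were above the limit in all 5 lanes. miR-1246, which overlaps a fragment of the U2 spliceosomal RNA, stood at 137, 170 and 108 normalized counts in shPLEKHA7 replicates 1, 2 and 3, against 96.3 and 82.7 in NT replicates 1 and 3. The groups were apart, as for 48% of all tested probes, with a log2 fold change of 0.61 (SE 0.21, edgeR adjusted p = 0.118). miR-1274b, a fragment of a lysine tRNA, stood at 323, 349 and 374 in shPLEKHA7 replicates 1, 2 and 3, against 237 and 273 in NT replicates 1 and 3, with a log2 fold change of 0.45 (SE 0.14, edgeR adjusted p = 0.0976). miR-1274a, miR-1260 and miR-720, further tRNA fragments, had log2 fold changes of 0.36 (SE 0.20), 0.28 (SE 0.16) and 0.15 (SE 0.17), and miR-1979 was at 0.20. miR-1308 was the exception at -0.68 (SE 0.35), with normalized counts of 21.0, 16.5 and 9.8 in shPLEKHA7 replicates 1, 2 and 3, against 24.1 and 25.4 in NT replicates 1 and 3, and 2 of its shPLEKHA7 lanes below the limit.

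The probes with the most similar profiles were found by the root mean square difference of log2 normalized counts over the 5 samples, each probe centred on its own mean. For miR-484 these were miR-1274b (0.11), the joint probe of miR-20a and miR-20b (0.11) and miR-769-5p (0.11), against a median distance of 0.36 to the other 203 tested probes. miR-484 and miR-1274b both had their lowest values in the NT samples and their highest in shPLEKHA7 replicate 3. For miR-320a the nearest were miR-125b (0.55), the viral probe ebv-miR-BART16 (0.56) and miR-744 (0.56), against a median of 1.11, none as close as those of miR-484. Both NT counts of miR-320a and of miR-1226 were below the limit, so distances from these probes rest in part on background counts. For miR-1226 they were miR-145 (0.24), miR-539 (0.30) and ebv-miR-BART6-5p (0.33), against a median of 0.61. The 3 miRNAs did not resemble each other as closely: miR-484 lay 0.97 from miR-320a and 0.61 from miR-1226, and miR-320a lay 1.07 from miR-1226.

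The scale on which lanes are compared moved all 3 miRNAs together. Scaling to the spike-ins, the positive controls added to every lane, moved the median log2 fold change of all tested probes to -0.27, from 0.06 under TMM. Under it miR-484 was at 0.13 (SE 0.28, edgeR adjusted p = 0.802) and miR-1226 at 0.07 (SE 0.49, edgeR adjusted p = 0.925), while miR-320a was called at 1.33 (SE 0.49, edgeR adjusted p = 0.0436). A scaling shifts all probes of a lane alike, so it leaves their order nearly as it was, and whether the level of miR-484 differed in absolute terms was not settled.

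miR-320a passed the threshold in 5 of 10 alternatives that used all 5 samples and no replicate block, with adjusted p from 0.00506 to 0.109. These were the deposited (1.59), total-count (1.76) and spike-in scalings, and limma on log2 of the deposited signal plus 1 (1.76, SE 0.39) or plus 10 (0.95, SE 0.27). With the replicate number as a block it was called too (1.75, SE 0.51, edgeR adjusted p = 0.0251). miR-484 passed in 0 of 11 such alternatives, with adjusted p from 0.0784 to 0.802, and miR-1226 in 0 of 10. All of these fits use the same NT counts of 2 and 11, so they are not separate evidence.

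**Figure D4:**
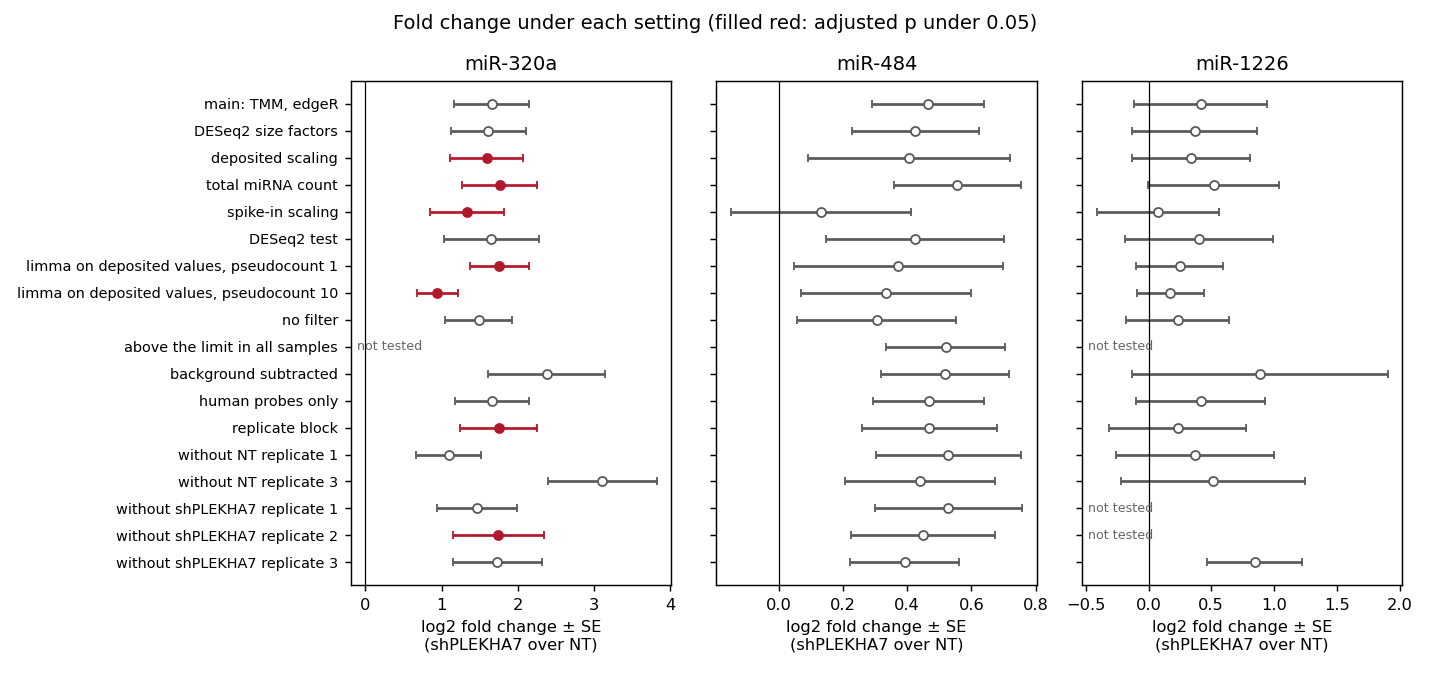
log2 fold change of shPLEKHA7 over NT (horizontal axes, ± SE) of each miRNA under the main fit, each alternative and each omission of a sample (rows), with filled red points where the adjusted p was under 0.05. miR-320a ran from 0.95 to 3.11 and was called under 7 of the 16 alternatives that tested it, while miR-484 (0.13 to 0.56) and miR-1226 (0.07 to 0.89) were called under 0.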

How the data were processed

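Total RNA of 5 Caco2 samples was hybridised to NanoString's nCounter panel of human miRNAs (version 2), per the series' design text. The authors deposited raw counts per probe and lane, exported by software not given in the sources used here. They also deposited a normalized signal. In it 100% of human miRNA values were, to within 0.02, a lane's count multiplied by a single factor for that lane, and viral values were unscaled, so limma used its human probes only. Groups and replicate numbers came from the sample titles, and the design text speaks of 3 independent sets of infections.

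edgeR 4.0.16 (R 4.3.3) fitted the raw counts with TMM scaling and the quasi-likelihood test, group being the only term. Benjamini-Hochberg adjustment ran over all 204 miRNA probes, human and viral, above the limit of detection (negative-control mean plus 2 SD of the same lane) in 2 or more samples. The SE was derived from the log2 fold change and the F statistic. The prior for profile distances was 0.5 counts. DESeq2 1.42.0, limma 3.58.1, other scalings, filters, background subtraction (floor 1), a replicate block and omission of each sample were alternatives. The edgeR step was tested on simulated data, with no result given here on its error rate at these counts. The 3 miRNAs, the lists and the tests were chosen with earlier results of these data known. Named miRNAs are the 3 members, the tested probes of the lists of other Microprocessor-independent RNAs and the 3 nearest profiles of each member. miR-215, miR-320b, miR-320c, miR-320d, miR-877 and miR-1248 were named after their values were seen. Sequences are from RefSeq (GRCh38.p14), matched exactly to probe targets for 2 of the 3 members.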

Additional observations from a re-analysis of the deposited data

How the results depend on the processing

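All 3 log2 fold changes kept their sign under each alternative that tested them. miR-320a was called under the deposited (1.59), total-count (1.76) and spike-in (1.33) scalings, under limma with a pseudocount of 1 (1.76) or 10 (0.95) and with the replicate block (1.75), and ranged between 1.09 and 3.11 when 1 sample was omitted. The replicate block called neither miR-484 (0.47) nor miR-1226 (0.23). Over all probes, 5 were called higher and 8 lower. The higher count was 12 under total counts, 2 with DESeq2, 3 under limma with a pseudocount of 10, 1 with no filter, 2 among probes above the limit in all samples and 10 with the block, and ranged between 0 and 9 when 1 sample was omitted. The lower count was 2 under the deposited scaling, 29 under spike-in scaling, and 2 and 4 under limma with pseudocounts of 1 and 10, and ranged between 0 and 11 when 1 sample was omitted. Without NT replicate 3 edgeR called 0 in all, with 34 probes at an unadjusted p under 0.05; without NT replicate 1 it called 0 higher and 1 lower, with 38. The difference in the log2 ratio of miR-484 to miR-1226 ran from -0.44 (without shPLEKHA7 replicate 3) to 0.49, and that in the negative-control mean from -0.31 (without shPLEKHA7 replicate 1) to 3.00 counts. The median log2 fold change of all tested probes was -0.27 under spike-in scaling and 0.15 under total counts, from 0.06 under TMM. Some fits held fewer probes or samples. The cause of these moves was not tested. miR-320a and miR-1226 could not be fitted among probes above the limit in all samples. Same-numbered samples were not taken as pairs, as the design text speaks of 3 sets of infections without saying that a number marks a set. With 2 shared numbers the differences between replicates 1 and 3 correlated at 0.11 across probes. That value comes from 1 difference per group and cannot decide whether the numbers mark sets. With the block 10 probes were called higher and 12 lower. Counts near the limit set what can be said of miR-320a and miR-1226.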
